A study of Mus musculus with 32 samples.

Results

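CD8 and CD4 T cells recovered from the same syngeneic host were compared, as 3 pairs of libraries taken on day 6 after transfer. These 6 libraries were chosen by their labels among the 31 RNA libraries of the series. The study followed T cells of C57Bl6 mice in a model of graft-versus-host disease, in which Balb/c recipients differ from the donor at the major histocompatibility genes, with or without regulatory T cells (Treg) given on day 0. Full-length cDNA of sorted cells was sequenced, and T-cell receptor (TCR) alpha (TRA) and beta (TRB) chains were amplified from the same cDNA. The groups used here were CD4 and CD8 cells from spleen and lymph nodes before transplantation (day 0, 2 pairs), from untreated syngeneic control hosts (3 pairs) and from untreated allogeneic hosts with graft-versus-host disease (4 pairs). Pairs of Treg-treated hosts (4) entered the fit only to estimate the spread. All post-transplant libraries carry day 6 in their titles, whereas the series description places them at 8 days. Hosts of the syngeneic group are called JL019-1, JL019-2 and JL027 after their titles, which carry 2 prefixes, JL019 and JL027. The labels name neither the recipient strain nor the conditioning of syngeneic hosts, nor the sort markers beyond CD4 and CD8. They do not say whether a library came from 1 mouse or from pooled mice. The p-values of the fit therefore measure the spread between its library pairs, pooled over its conditions, and not a spread known to be between mice.

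CD4 T cells recognise peptides on MHC class II and act largely through cytokines and contact signals such as CD40 ligand, while CD8 T cells recognise peptides on MHC class I and can kill with granzymes and perforin. The choice between the lineages is held by transcription factors, with Zbtb7b (ThPOK) on the CD4 side and Runx3 on the CD8 side. In a syngeneic recipient short of lymphocytes, transferred T cells divide in response to self-peptides and to interleukin-7 and interleukin-15, which is called homeostatic expansion, and CD8 cells then take on features of memory cells.

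One of the 6 libraries held much more RNA of several other cell types than the rest. In the CD4 library of host JL019-2 the summed normalised count of 16 neutrophil markers was 4954660, against 117209 to 130501 in the other CD4 libraries and 56108 to 89252 in the CD8 libraries. Its 19 myeloid markers summed to 1002160 (other 5 libraries 20499 to 34962), its 18 erythroid markers to 524342 (4641 to 25054) and its 18 B cell markers to 119021 (22462 to 29651). Its 14 T-cell markers summed to 104604, against 247599 and 282442 in the other CD4 libraries. The comparisons below were therefore repeated without the JL019-2 pair, and where a gene has a single value, leaving out that pair did not change whether it was called. The other 5 libraries were not free of such RNA. Their neutrophil sums stood above those of allogeneic libraries, 8488 to 16809 in CD4 and 7995 to 14075 in CD8. Their myeloid sums did too, against 8664 to 11992 in CD4 and 13106 to 15433 in CD8. Leaving out JL019-2 thus left RNA of these markers in the comparisons. The part of these cells in the single results was not tested, and in bulk libraries fewer cells of a type and less RNA per cell cannot be told apart. Deposited RNA values are normalised counts, whose mean over the 16741 genes lay between 1452 and 2119 in the 6 libraries. The depth in reads is unknown.

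**Figure D1:**
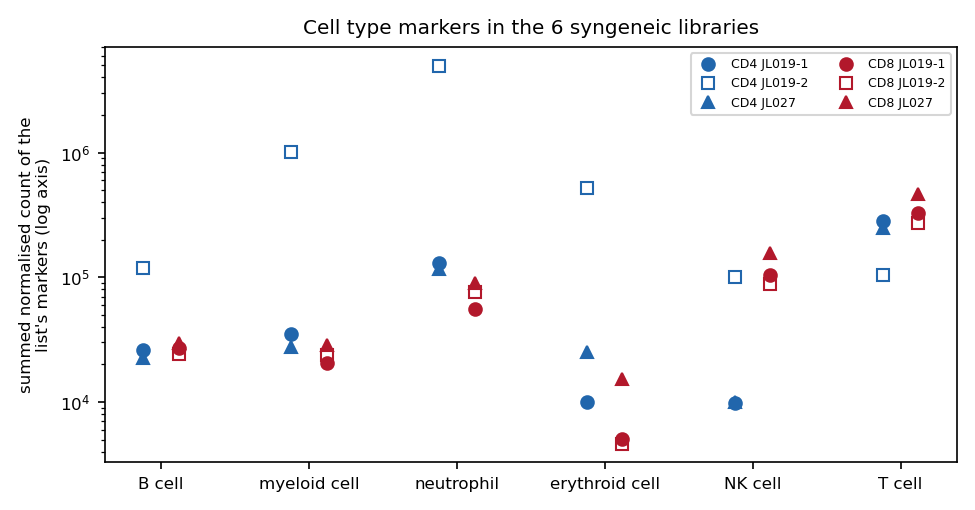
Summed normalised count (log axis) of 6 lists of cell type markers in each syngeneic library; blue is CD4, red is CD8, and open squares are host JL019-2. The open blue square stands above the other CD4 libraries for neutrophil, myeloid, erythroid, B cell and NK cell markers and below them for T-cell markers.

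The sort was first checked on the coreceptor genes. Cd4 measured 16526, 1659 and 14576 in the CD4 libraries and 53.9, 27.8 and 17.7 in the CD8 libraries, with hosts in the order JL019-1, JL019-2 and JL027 here and in all triplets below. Cd8a, the CD8 alpha chain, measured 58.2, 1956 and 114 in CD4 and 42077, 33817 and 61114 in CD8 libraries. The 2 cell types did not overlap for either gene, but the CD4 library of JL019-2 had the lowest Cd4 of its group and a Cd8a value close to its own Cd4 value. Cd8b1, the CD8 beta chain, measured 886, 3160.0 and 1036 in CD4 and 77253, 61579 and 122919 in CD8 libraries. These genes define the sort and are a check of the labels, not a result.

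Across all genes, limma on log2(value + 1) with the host as a block called 756 genes higher in CD8 cells (4.52% of those tested) and 1136 higher in CD4 cells (6.79%) at an adjusted p below 0.05. A called gene had a log2 difference, CD8 minus CD4, that stood out from the spread within hosts over 26 CD4 and CD8 libraries. Without host JL019-2, 2209 genes (13.2%) were called higher in CD8 and 2046 (12.2%) higher in CD4 cells. In both fits 1479 genes were called with the same sign, and of the 413 called only with JL019-2 in the fit, 289 were higher in CD4 cells. With the syngeneic hosts of prefix JL019 alone, 471 genes were called higher in CD8 and 993 in CD4 cells. The 3 CD8 libraries all lay above the 3 CD4 libraries for 1874 genes (11.2%) and all below for 2264 (13.5%). Centring each library on its median raised the median log2 difference of all genes from -0.05 to 0.15, and 63.9% of calls were then higher in CD8, against 40.0% as deposited. Fitted on the 6 libraries alone, which leaves 2 residual degrees of freedom, limma called 0 genes, with 2236 at an unadjusted p below 0.05, so the calls rest on the spread shared with the other conditions. The difference also ran with gene length, with a median of 0.15 in the shortest of 4 equal bins of genomic span and -0.35 in the longest (0.29 and -0.61 without JL019-2).

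In each direction the 12 genes with the lowest p were named, whether or not they stand in a list, among genes called with and without JL019-2 whose cell types did not overlap. Those higher in CD8 cells were Klrc1, Crtam, Ctsw, Cd8b1, Samd3, Cd22, Cxcr6, Cd160, Eomes, Cxcr3, Rras2 and Ctla2a, and those higher in CD4 cells were Cd200r1, Pdlim4, Nrp1, Trib1, Cd40lg, Swap70, Ccr8, Ly6c1, Cd81, Tnfrsf4, Ptgir and Penk. Samd3, a protein with a sterile alpha motif and little known function, measured 67.3, 385 and 117 in CD4 and 7386, 7166 and 10016 in CD8 libraries. Its 6 values did not overlap, and its log2 difference was 5.79 ± 0.37 (SE, adjusted p = 4.52e-07), or 6.58 without host JL019-2 (adjusted p = 5.22e-10). Rras2, a small GTPase that associates with the T-cell receptor, measured 1795, 884 and 2363 in CD4 and 9789, 7959 and 12577 in CD8 libraries, a log2 difference of 2.68 ± 0.20 (SE, adjusted p = 1.83e-06), or 2.43 without host JL019-2 (adjusted p = 1.23e-06). All 3 CD8 libraries were above all CD4 libraries for Rras2. Crtam, an adhesion receptor of activated CD8 and NK cells, measured 393, 198 and 428 in CD4 and 4111, 3346 and 4323 in CD8 libraries (3.60 ± 0.22 SE, adjusted p = 3.40e-07, and 3.36, adjusted p = 9.04e-08, without JL019-2).

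On the CD4 side, Pdlim4, a PDZ and LIM domain protein, measured 3911, 1313 and 3296 in CD4 and 21.5, 14.3 and 50.4 in CD8 libraries. Even the low CD4 value, that of JL019-2, was far above every CD8 value, and the log2 difference was -6.62 ± 0.34 (SE, adjusted p = 1.34e-07), or -6.72 without host JL019-2 (adjusted p = 2.04e-08). Ptgir, the prostacyclin receptor, was nearly level among CD4 libraries at 423, 413 and 422 and measured 5.55, 23.4 and 5.56 in CD8 libraries (-5.37, adjusted p = 7.87e-07). Penk, which encodes the enkephalin precursor, measured 989.7, 511 and 738 in CD4 and 9.11, 21.8 and 15.8 in CD8 libraries (-5.52, adjusted p = 8.36e-07). Cd81, a tetraspanin, and Trib1, a pseudokinase, were also higher in CD4 cells, and both were highest in the CD4 library of JL019-2, at 4221 and 2656. Without that host their log2 differences were -4.36 (adjusted p = 8.32e-08) and -4.11 (adjusted p = 6.78e-08). Swap70, a regulator of the actin skeleton, was higher in CD4 cells by a log2 difference of -3.14 (adjusted p = 3.31e-07) and also had its top value, 849.9, in that library.

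**Figure D2:**
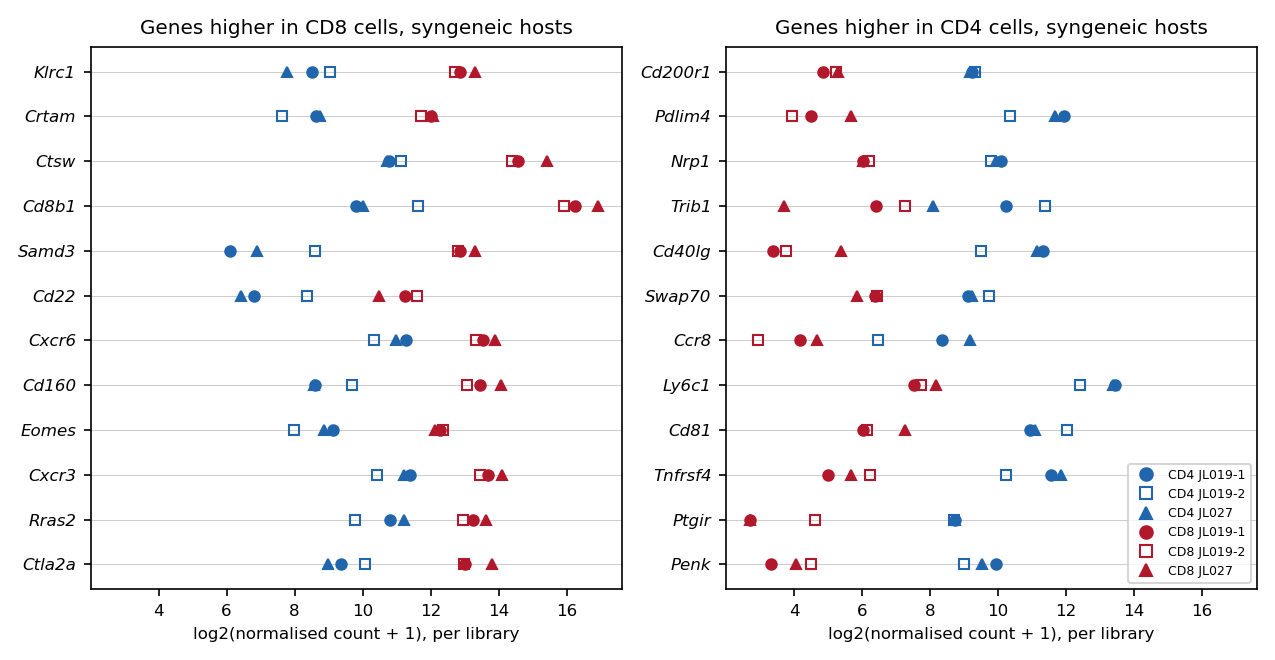
Level of 24 named genes, log2(normalised count + 1), in each of the 6 syngeneic libraries; blue is CD4, red is CD8, symbols are hosts, and open squares are host JL019-2. The rule that chose these genes asked for no overlap between the cell types, so the separation is a description, and the open blue squares sit apart from the other CD4 libraries for Samd3, Cd8b1, Cd40lg and Tnfrsf4.

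Leaving out the coreceptor genes, 9 genes of the CD8 lineage list were measured, and 6 were called higher in CD8 and 0 in CD4 cells, against 4.52% and 6.79% of all genes. Their median log2 difference was 3.58, where the median of all genes was -0.05. Without JL019-2 the counts were 7 and 0, and the median was 3.22. Eomes, a T-box factor of memory and cytotoxic cells, measured 554, 253 and 463 in CD4 and 4985, 5311 and 4457 in CD8 libraries, with no overlap. Its log2 difference was 3.61 ± 0.26 (SE, adjusted p = 1.46e-06), or 3.22 without host JL019-2 (adjusted p = 5.00e-07). Tbx21 (T-bet), the other T-box factor, measured 1346, 312 and 845 in CD4 and 6959.8, 6757 and 4775 in CD8 libraries. The groups did not overlap, and the log2 difference was 3.10 ± 0.38 (SE, adjusted p = 1.09e-04), or 2.43 without host JL019-2 (adjusted p = 1.11e-04). Runx3, the factor of CD8 commitment, was not called, at 1329.6, 603 and 1233 in CD4 and 1535, 1825 and 1345 in CD8 libraries (0.64, adjusted p = 0.195).

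Of 11 CD4 lineage genes other than Cd4 itself, 3 were called higher in CD4 and 0 in CD8 cells (8 and 0 without JL019-2), where all genes gave 6.79% and 4.52% (12.2% and 13.2% without that host). Zbtb7b, the gene of the CD4 lineage factor ThPOK, measured 1312, 462 and 956 in CD4 and 34.4, 33.9 and 11.7 in CD8 libraries. Every CD4 value was above every CD8 value (-5.06 ± 0.44 SE, adjusted p = 5.88e-06, and -5.73, adjusted p = 1.86e-07, without JL019-2). Members called only without JL019-2 included Gata3 (-0.46 with and -1.28 without that host, adjusted p = 0.455 and 0.00334), Tox (-0.68 and -1.47, adjusted p = 0.267 and 0.00163) and Tcf7 (0.10 and -1.06, adjusted p = 0.916 and 0.0281), which act in T-cell development. The JL019-2 CD4 library held the lowest value of all 6 libraries for each of these 3 genes.

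Among effector genes of killing, more were called higher in CD8 than in CD4 cells. Of 21 measured granule and death ligand genes, 11 were called higher in CD8 and 1 in CD4 cells (10 and 3 without JL019-2), with a median log2 difference of 0.97 (0.56 without JL019-2). Against 4.52% and 6.79% of all genes, and 13.2% and 12.2% without JL019-2, the CD8 counts are high and the CD4 counts near the background. Gzmm, a granzyme also made by NK cells, measured 83.5, 677 and 117 in CD4 and 13342, 10706 and 19174 in CD8 libraries. Both groups kept apart, the highest CD4 value being that of JL019-2, and the log2 difference was 6.21 ± 0.50 (SE, adjusted p = 3.37e-06), or 7.32 without host JL019-2 (adjusted p = 5.22e-10). Gzmb, the granzyme that activates caspases in the target, measured 1996, 2373 and 4272 in CD4 and 16202, 11542 and 21999 in CD8 libraries. The CD8 values were all higher, by a log2 difference of 2.56 ± 0.22 (SE, adjusted p = 4.54e-06), or 2.69 without host JL019-2 (adjusted p = 2.35e-06). Prf1, the pore-forming perforin, measured 1131, 541 and 1157 in CD4 and 4932, 4291 and 4295 in CD8 libraries (2.33 ± 0.26 SE, adjusted p = 4.35e-05, and 2.01, adjusted p = 8.66e-05, without JL019-2). Fasl, the death ligand, measured 569, 319 and 679.6 in CD4 and 2184, 2112 and 3359.7 in CD8 libraries (2.32 ± 0.19 SE, adjusted p = 3.37e-06, and 2.12, adjusted p = 3.00e-06, without JL019-2). Nkg7, a granule membrane protein, measured 5677, 14366 and 6148 in CD4 and 88398, 71909 and 136026 in CD8 libraries (3.58 ± 0.34 SE, adjusted p = 1.26e-05, and 4.21, adjusted p = 5.80e-08, without JL019-2). For Prf1, Fasl and Nkg7 no CD4 library reached the CD8 values. Ctsw, a cathepsin of cytotoxic cells, measured 1738, 2240.4 and 1690.4 in CD4 and 24080.3, 21465 and 43789 in CD8 libraries (3.92 ± 0.24 SE, adjusted p = 3.59e-07, and 4.24, adjusted p = 1.05e-08, without JL019-2).

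Not every granzyme was on the CD8 side. Gzmk, a tryptase-like granzyme, was higher in CD4 cells, at 1296, 837 and 1073 against 128, 128 and 269 in CD8 libraries. Its groups did not overlap and its log2 difference was -2.68 ± 0.30 (SE, adjusted p = 5.44e-05), or -2.66 without host JL019-2 (adjusted p = 9.48e-05). Gzmc reached no call (-0.72, adjusted p = 0.204), and Gzmd was listed at 0 in all 6 libraries. Gzma was called higher in CD8 cells by a small margin with all hosts (1.91, adjusted p = 0.0485), as the CD4 library of JL019-2 held 2612 against 282 and 293 in the other CD4 libraries, and by 3.25 without it (adjusted p = 7.56e-06). The granzymes from Gzmc to Gzmf are close paralogs, and reads could be split between them. Genes for perforin release and storage, Unc13d (-0.16, adjusted p = 0.57) and Srgn (-0.30, adjusted p = 0.557), were not called. Rab27a, of the same list, was called higher in CD4 cells only without JL019-2 (-0.43 with and -0.73 without that host, adjusted p = 0.277 and 0.0456).

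The 250 bases before the start of 6 genes higher in CD8 cells and of Il21 and Il3, cytokine genes higher in CD4 cells, are shown because Runx and T-box factors, which include Runx3, Eomes and T-bet, are known to act at effector genes of T cells. Sequences are from RefSeq on GRCm38.p6, 5′ to 3′ on the gene's strand, with the first listed start where there are several. Capitals mark the Runx letters TGTGGT or ACCACA and the T-box letters GGTGTGA or TCACACC, searched on both strands. The genes were picked with the positions of these letters known, to show windows with and without them on both sides.
Gzmm (chr10:79688770-79689019, plus strand): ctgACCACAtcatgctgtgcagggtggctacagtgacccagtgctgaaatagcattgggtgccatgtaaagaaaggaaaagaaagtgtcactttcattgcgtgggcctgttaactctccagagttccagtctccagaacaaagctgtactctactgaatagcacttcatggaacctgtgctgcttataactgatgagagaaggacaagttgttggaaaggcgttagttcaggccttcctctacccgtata
Gzmb (chr14:56262335-56262584, minus strand): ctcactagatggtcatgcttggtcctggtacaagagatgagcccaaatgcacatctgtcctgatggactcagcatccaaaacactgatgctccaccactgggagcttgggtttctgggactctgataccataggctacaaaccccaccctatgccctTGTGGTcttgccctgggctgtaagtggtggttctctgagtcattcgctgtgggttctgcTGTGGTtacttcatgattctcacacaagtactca
Prf1 (chr10:61297586-61297835, plus strand): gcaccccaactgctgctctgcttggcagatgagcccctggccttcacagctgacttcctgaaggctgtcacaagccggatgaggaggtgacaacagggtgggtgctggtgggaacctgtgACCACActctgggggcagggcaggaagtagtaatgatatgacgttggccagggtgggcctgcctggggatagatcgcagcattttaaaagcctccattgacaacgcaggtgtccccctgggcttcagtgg
Nkg7 (chr7:43436888-43437137, plus strand): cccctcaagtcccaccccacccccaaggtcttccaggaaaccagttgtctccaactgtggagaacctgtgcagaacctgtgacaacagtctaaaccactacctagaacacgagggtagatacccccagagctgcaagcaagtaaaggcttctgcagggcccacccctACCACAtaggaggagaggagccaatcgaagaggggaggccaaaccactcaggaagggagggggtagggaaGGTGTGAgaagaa
Fasl (chr1:161788496-161788745, minus strand): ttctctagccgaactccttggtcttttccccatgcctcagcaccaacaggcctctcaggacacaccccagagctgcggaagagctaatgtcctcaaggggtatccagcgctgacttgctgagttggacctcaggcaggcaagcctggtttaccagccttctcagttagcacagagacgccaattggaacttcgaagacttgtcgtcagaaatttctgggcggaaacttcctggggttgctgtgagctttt
Klrc1 (chr6:129678974-129679223, minus strand): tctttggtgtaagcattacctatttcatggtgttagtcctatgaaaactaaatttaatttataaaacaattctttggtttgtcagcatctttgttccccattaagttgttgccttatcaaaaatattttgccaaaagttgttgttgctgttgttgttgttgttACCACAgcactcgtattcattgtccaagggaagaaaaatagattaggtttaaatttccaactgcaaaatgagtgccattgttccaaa
Il21 (chr3:37232637-37232886, minus strand): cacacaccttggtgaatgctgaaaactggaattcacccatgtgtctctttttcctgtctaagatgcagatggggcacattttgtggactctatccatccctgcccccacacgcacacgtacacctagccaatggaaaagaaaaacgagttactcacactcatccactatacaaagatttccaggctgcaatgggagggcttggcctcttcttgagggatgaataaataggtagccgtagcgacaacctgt
Il3 (chr11:54267280-54267529, minus strand): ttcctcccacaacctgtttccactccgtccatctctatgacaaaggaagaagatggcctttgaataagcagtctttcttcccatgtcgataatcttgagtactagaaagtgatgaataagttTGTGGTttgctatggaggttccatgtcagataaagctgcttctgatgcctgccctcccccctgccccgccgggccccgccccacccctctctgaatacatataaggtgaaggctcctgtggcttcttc

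Gzmb held the Runx letters at 2 places, Gzmm, Prf1, Nkg7, Klrc1 and Il3 at 1 place each, and Fasl and Il21 at none. Of these 8 windows, the one of Nkg7 alone held the T-box letters. Over all 27025 genes with a promoter in the table, 14.2% held the Runx letters and 3.31% the T-box letters in the same window. Among the cytotoxic list, 13 of the 20 members with a sequence (65.0%) held the Runx letters, and 4 of 20 the T-box letters. In the killer receptor list 10 of 24 (41.7%) held the Runx letters, and in the cytokine list 5 of 24 (20.8%). The letters did not follow the calls within the cytotoxic list: 6 of 10 members called higher in CD8 cells held them, 0 of 1 called higher in CD4 cells, and 7 of 9 that were not called or not measured, of which 5 are neighbouring paralogs from Gzmc to Gzmg with related sequence. In the killer receptor list 8 of 13 members called higher in CD8 cells held them, 0 of 2 called higher in CD4 cells and 2 of 9 others. Among cytokine genes 2 of 9 called higher in CD4 cells, Il3 and Il13, held them, 0 of 1 called higher in CD8 cells and 3 of 14 others. A match of letters is a description of the window and not a measured binding site, and the windows hold no distal enhancers.

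Receptors shared with NK cells lay on the CD8 side more often than not. Of 26 measured members, 16 were called higher in CD8 and 3 in CD4 cells (21 and 2 without JL019-2), and the median log2 difference was 2.93 (4.29 without JL019-2). The shares of all genes were 4.52% and 6.79% (13.2% and 12.2% without that host), so the few CD4 calls are not far from the background. Klrc1 (NKG2A), an inhibitory receptor that pairs with CD94, measured 365, 521 and 220.0 in CD4 and 7419, 6780.4 and 10145 in CD8 libraries. The groups were far apart, with a log2 difference of 4.52 ± 0.27 (SE, adjusted p = 3.31e-07), or 4.93 without host JL019-2 (adjusted p = 5.38e-09). Klrd1, which encodes its partner CD94, measured 169, 1228 and 307 in CD4 and 8411, 7169 and 14811 in CD8 libraries. The JL019-2 CD4 library was again the highest of its group, and the log2 difference was 4.59 ± 0.47 (SE, adjusted p = 2.23e-05), or 5.61 without host JL019-2 (adjusted p = 7.02e-09). Cd160, a receptor for the HVEM ligand, measured 384, 818 and 381 in CD4 and 11244, 8620.4 and 17217 in CD8 libraries (4.59 ± 0.32 SE, adjusted p = 8.63e-07, and 5.18, adjusted p = 4.62e-09, without JL019-2). Klrk1 (NKG2D), an activating receptor for stress ligands, measured 107, 1071 and 134 in CD4 and 1494, 1496 and 2651 in CD8 libraries (2.86 ± 0.52 SE, adjusted p = 0.00245, and 4.04, adjusted p = 1.69e-07, without JL019-2). Its log2 difference was 4.04 without host JL019-2 (adjusted p = 1.69e-07).

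Klrg1, a receptor often carried by short-lived effector cells, went the other way. It measured 558, 347 and 984 in CD4 and 33.4, 17.6 and 67.8 in CD8 libraries, with no overlap and a log2 difference of -4.03 ± 0.28 (SE, adjusted p = 8.36e-07), or -3.93 without host JL019-2 (adjusted p = 6.56e-07). Of the Ly49 receptors, Klra3, Klra6, Klra7, Klra5 and Klra1 were called higher in CD8 cells, by up to 6.20 for Klra6 (adjusted p = 4.35e-04), though these genes are close paralogs and their separate counts are uncertain. Among NK cell markers, summed values were 87624 to 155129 in CD8 libraries, 100859 in the CD4 library of JL019-2 and 9836 and 10039 in the others. Of the 13 markers, 7 were called higher in CD8 cells and 1 in CD4 cells (8 and 0 without JL019-2), and none was at 0 in any of the 6 libraries. Of all genes 4.52% and 6.79% were called in these directions, and 13.2% and 12.2% without JL019-2. The CD4 counts are near or below that background. Eomes, Prf1, Gzma and Nkg7 stand in the NK list and in the CD8 lineage or cytotoxic list. Ncr1 (NKp46), an NK cell receptor in the list, measured 6.71, 16.9 and 19.99 in CD8 libraries, 11.7 and 15.1 in CD4 libraries and 468 in that of JL019-2. The part of NK cells in the receptor values was not tested.

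More cytokine genes were called higher in CD4 than in CD8 cells. Of 24 measured members, 12 were called higher in CD4 and 1 in CD8 cells (14 and 2 without JL019-2), with a median log2 difference of -1.97. Of all genes 6.79% and 4.52% were called in these directions, and 12.2% and 13.2% without JL019-2, so the CD8 counts are near or below the background. Cd40lg, the contact signal to B cells and dendritic cells, measured 2582, 724 and 2264 in CD4 and 9.51, 12.6 and 40.8 in CD8 libraries. Its log2 difference was -6.48 ± 0.38 (SE, adjusted p = 3.31e-07), or -6.85 without host JL019-2 (adjusted p = 1.66e-08), and no value overlapped. Il21, a cytokine of helper cells, measured 294, 30.8 and 236 in CD4 and 0.854, 0.746 and 0 in CD8 libraries (-6.46 ± 0.53 SE, adjusted p = 3.84e-06, and -7.60, adjusted p = 1.64e-09, without JL019-2). Tnfsf11 (RANKL) measured 1233, 234 and 1343 in CD4 and 44.1, 39.4 and 55.2 in CD8 libraries (-3.96 ± 0.35 SE, adjusted p = 6.38e-06, and -4.68, adjusted p = 7.39e-09, without JL019-2). Il3 was present in all CD4 libraries, at 292, 36.6 and 235, and listed at 0 in all CD8 libraries (adjusted p = 1.02e-05). Il10 (-4.21, adjusted p = 1.46e-05), Il2 (-3.93, adjusted p = 3.41e-04) and Il4 (-3.83, adjusted p = 4.61e-04) were higher in CD4 cells at levels of at most 207.

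Ifng, the interferon of type 1 responses, was the single cytokine gene called higher in CD8 cells with all hosts. It measured 970.0, 713 and 837 in CD4 and 3581, 2067 and 1042 in CD8 libraries, a log2 difference of 1.24 ± 0.25 (SE, adjusted p = 0.00542), or 1.10 without host JL019-2 (adjusted p = 0.014). The CD8 libraries were all above the CD4 libraries, by a small margin in JL027. Tnf (-0.30, adjusted p = 0.468) and Ltb (0.48, adjusted p = 0.235) were not called. Osm was called higher in CD4 cells, but its value of 4762 in the JL019-2 CD4 library stood against 1184 and 945, and its log2 difference moved from -1.53 (adjusted p = 0.0127) to -0.78 without it (adjusted p = 0.034).

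Genes of helper subsets followed, with 8 of 23 called higher in CD4 and 4 in CD8 cells (12 and 4 without JL019-2). Beside the 6.79% and 4.52% of all genes, and 12.2% and 13.2% without JL019-2, the CD8 count without that host is near the background. Maf measured 417, 180.1 and 607 in CD4 and 32.6, 50.1 and 28.5 in CD8 libraries (-3.28 ± 0.34 SE, adjusted p = 2.82e-05, and -4.00, adjusted p = 1.56e-08, without JL019-2). It is a factor of interleukin-21 and interleukin-10 production. Ahr, the aryl hydrocarbon receptor, measured 662, 264 and 397 in CD4 and 33.5, 33.2 and 30.9 in CD8 libraries (-3.62 ± 0.30 SE, adjusted p = 3.84e-06, and -3.95, adjusted p = 4.60e-07, without JL019-2). The 4 called higher in CD8 cells were Tbx21, Sh2d1a (1.26, adjusted p = 0.00187), Stat4 (1.37, adjusted p = 0.00344) and Ikzf3 (1.74, adjusted p = 0.00599). Cxcr5, the receptor of follicular helper cells, was not called (0.48, adjusted p = 0.517).

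Of 24 Treg identity genes, 18 were called higher in CD4 and 1 in CD8 cells (17 and 1 without JL019-2), where 6.79% and 4.52% of all genes were (12.2% and 13.2% without JL019-2). The single CD8 call is near or below the background. The median log2 difference of the list was -2.62. Foxp3, the Treg factor, measured 490.2, 44.9 and 905 in CD4 libraries and 0, 3.52 and 0 in CD8 libraries (adjusted p = 6.31e-05, and 7.16e-10 without JL019-2). The CD4 libraries all lay above the CD8 libraries, that of JL019-2 at the lowest value of the 3. Tnfrsf4 (OX40), a costimulator, measured 3009.6, 1201 and 3718 in CD4 and 31.1, 74.5 and 49.8 in CD8 libraries (-5.58 ± 0.38 SE, adjusted p = 7.87e-07, and -6.37, adjusted p = 5.22e-10, without JL019-2). Nrp1, a semaphorin co-receptor of thymic Treg, measured 1095, 895 and 975 in CD4 and 64.6, 72.8 and 63.8 in CD8 libraries (-3.86 ± 0.21 SE, adjusted p = 1.72e-07, and -3.99, adjusted p = 1.56e-08, without JL019-2). The CD4 values of Nrp1 were alike in the 3 hosts, including JL019-2. Ctla4 (-2.94, adjusted p = 2.41e-05), Ikzf2 (-2.81, adjusted p = 3.10e-04), Ccr8 (-4.08, adjusted p = 3.59e-07) and Il2ra (-2.17, adjusted p = 0.00165) went the same way. Entpd1 (CD39), the exception, was higher in CD8 cells (1.21, adjusted p = 0.0184), and Tnfrsf18 (GITR) was not called (-0.04, adjusted p = 0.917). The CD4 sort was described as conventional T cells.

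Costimulatory and inhibitory receptors were split, 15 of 32 called higher in CD4 and 6 in CD8 cells, with the same counts without JL019-2. All genes gave 6.79% and 4.52%, and 12.2% and 13.2% without that host, where the CD8 count is much nearer the background. Cd200r1, the receptor of the inhibitory ligand CD200, measured 599, 644 and 574 in CD4 and 27.9, 36.5 and 38.5 in CD8 libraries. It varied little among the CD4 libraries, and its log2 difference was -4.11 ± 0.20 (SE, adjusted p = 1.34e-07), or -4.12 without host JL019-2 (adjusted p = 1.05e-08). Pdcd1 (PD-1) measured 1863, 579.9 and 2016 in CD4 and 143, 135 and 190.1 in CD8 libraries, without overlap (-3.06 ± 0.25 SE, adjusted p = 3.84e-06, and -3.55, adjusted p = 1.05e-08, without JL019-2). Havcr2 (TIM-3) measured 582, 353 and 721 in CD4 and 51.7, 43.5 and 108 in CD8 libraries (-3.06 ± 0.25 SE, adjusted p = 3.37e-06, and -3.10, adjusted p = 2.50e-06, without JL019-2). Both are inhibitory receptors of activated T cells. Those higher in CD8 cells were Cd160, Cd226 (1.77, adjusted p = 2.88e-04), Cd27 (1.43, adjusted p = 2.97e-04), Cd86 (1.36, adjusted p = 0.00291), Cd96 (0.92, adjusted p = 0.0344) and Ly9 (1.09, adjusted p = 0.0392), of which Cd96 and Ly9 lost the call without JL019-2 (adjusted p = 0.143 and 0.171).

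**Figure D3:**
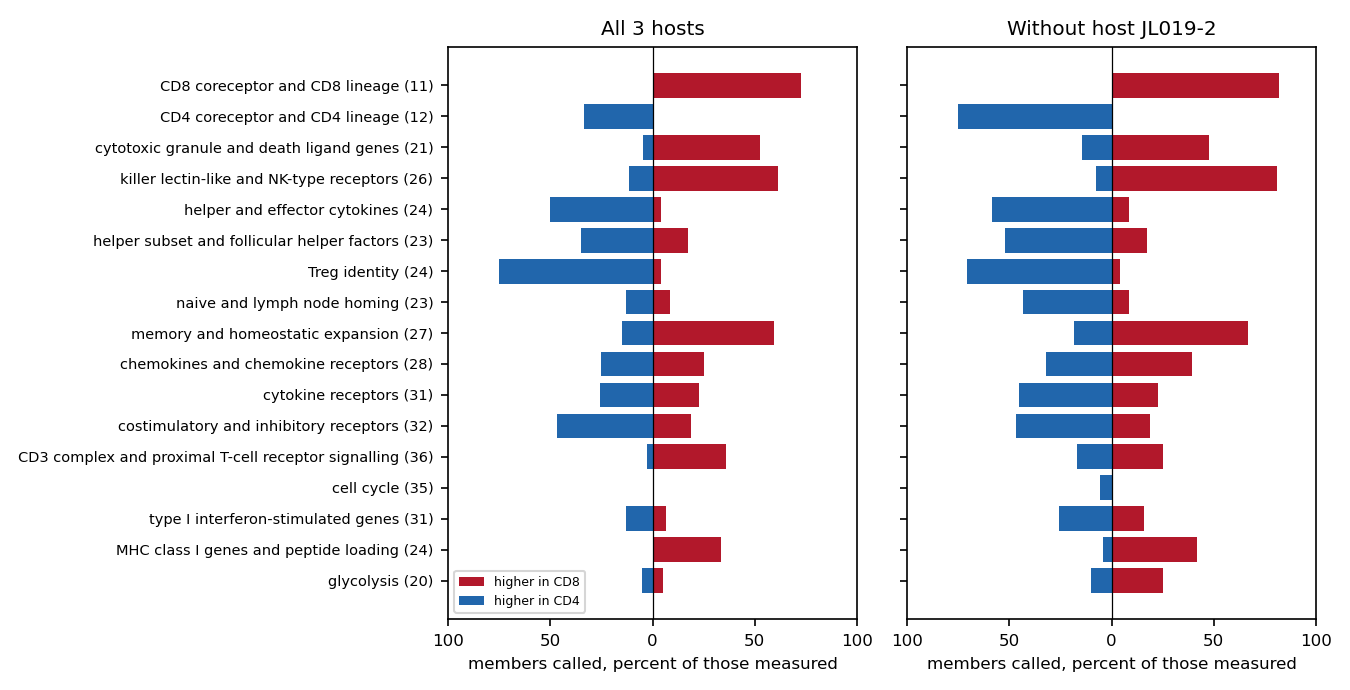
Share of each list's measured members (their number in parentheses) called higher in CD8 cells, to the right in red, and higher in CD4 cells, to the left in blue, with all 3 hosts and without host JL019-2. The 2 lineage lists are drawn with the coreceptor genes included. Cytotoxic, killer receptor and memory lists extend to the right and the cytokine and Treg lists to the left in both panels, while the naive and CD4 lineage lists gain CD4 calls without JL019-2.

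Genes of memory cells and of homeostatic expansion were mostly on the CD8 side, with 16 of 27 called higher in CD8 and 4 in CD4 cells (18 and 5 without JL019-2) and a median log2 difference of 1.19. For all genes the shares were 4.52% and 6.79%, and 13.2% and 12.2% without JL019-2, so the CD4 count without that host lies nearer the background. Il2rb (CD122), the shared receptor chain of interleukin-2 and interleukin-15, measured 11699, 2580.4 and 9766 in CD4 and 36746, 40004 and 25569 in CD8 libraries. The groups were apart, with a log2 difference of 2.33 ± 0.40 (SE, adjusted p = 0.00172), or 1.52 without host JL019-2 (adjusted p = 0.00291). Cxcr3, a receptor for interferon-induced chemokines, measured 2696, 1376 and 2393 in CD4 and 13131, 11096 and 17546 in CD8 libraries (2.72 ± 0.20 SE, adjusted p = 1.58e-06, and 2.58, adjusted p = 1.55e-06, without JL019-2). Cxcr6, a receptor for CXCL16, measured 2496, 1294 and 2040.2 in CD4 and 11935, 10311 and 15183 in CD8 libraries (2.72 ± 0.19 SE, adjusted p = 8.36e-07, and 2.58, adjusted p = 8.37e-07, without JL019-2). Ctla2a, a cathepsin inhibitor, measured 657, 1071 and 503 in CD4 and 8177, 8117 and 14338 in CD8 libraries (3.80 ± 0.30 SE, adjusted p = 3.07e-06, and 4.23, adjusted p = 8.45e-08, without JL019-2). Itga4, an integrin chain, was higher in CD4 cells (-2.39 ± 0.27 SE, adjusted p = 5.50e-05, and -2.81, adjusted p = 1.93e-06, without JL019-2). Cd44, the classical marker of antigen-experienced cells, did not pass, at 3232, 4979 and 3367 in CD4 and 3864, 4376 and 3172 in CD8 libraries (adjusted p = 0.991).

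The paralogs Ly6c1 and Ly6c2 moved in opposite directions. Ly6c1 measured 11108, 5491 and 10749 in CD4 and 183, 211 and 289.5 in CD8 libraries (-5.27 ± 0.33 SE, adjusted p = 3.92e-07, and -5.56, adjusted p = 5.19e-08, without JL019-2). Ly6c2 measured 2714, 81363 and 2724 in CD4 and 74054, 67831 and 104502 in CD8 libraries, so that the JL019-2 CD4 library reached the CD8 range, and its log2 difference was 3.26 ± 0.74 (SE, adjusted p = 0.0113), or 5.02 without host JL019-2 (adjusted p = 2.60e-07). The pair is nearly identical in sequence and its reads could be split between the genes.

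Chemokine genes and receptors gave equal counts, 7 of 28 each way (11 higher in CD8 and 9 in CD4 cells without JL019-2), all above the shares of all genes, 4.52% and 6.79% (13.2% and 12.2% without that host). Ccl5, a chemokine of memory CD8 cells, measured 279, 2779 and 446 in CD4 and 12802, 12415 and 23555 in CD8 libraries. Host JL019-2 held the highest CD4 value, and the log2 difference was 4.46 ± 0.50 (SE, adjusted p = 5.11e-05), or 5.62 without host JL019-2 (adjusted p = 2.92e-09). Xcl1 (2.84, adjusted p = 3.78e-04) and Ccr2 (1.62, adjusted p = 0.00155) were also higher in CD8 cells. Ccr4 (-3.61, adjusted p = 3.98e-05), Ccr6 (-5.66, adjusted p = 1.39e-05), Ccr8 and Ccl1 (-4.56, adjusted p = 4.74e-06), known from helper and regulatory subsets, were higher in CD4 cells. Ccr1 and Ccl3, called higher in CD4 cells, were highest in the JL019-2 CD4 library (3718 and 4341), whose myeloid markers were high. Cytokine receptors were split too with all hosts, 7 of 31 being called higher in CD8 and 8 in CD4 cells, above the same shares of all genes. Without JL019-2 the counts were 7 and 14, the CD8 count being nearer the 13.2% of all genes. Their median log2 difference moved from 0.14 to -0.49. The 2 chains of the interferon-gamma receptor moved apart, Ifngr1 being higher in CD8 cells (1.12 ± 0.17 SE, adjusted p = 6.47e-04, and 1.23, adjusted p = 5.05e-04, without JL019-2) and Ifngr2 in CD4 cells (-2.84 ± 0.40 SE, adjusted p = 3.49e-04, and -2.31, adjusted p = 0.00125, without JL019-2). Ifngr2 measured 1537, 3639.8 and 1437 in CD4 and 318, 245 and 281 in CD8 libraries.

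Naive and lymph node homing genes gave few calls with all hosts, 2 of 23 higher in CD8 and 3 in CD4 cells, and 2 and 10 without JL019-2. Over all genes the shares were 4.52% and 6.79%, and 13.2% and 12.2% without JL019-2, so the counts with all hosts and the CD8 count without JL019-2 are near or below the background. Igfbp4, an insulin-like growth factor binding protein of naive CD4 cells, measured 50386, 10627 and 43026 in CD4 and 2077, 1908 and 2806 in CD8 libraries (-3.67 ± 0.39 SE, adjusted p = 3.56e-05, and -4.27, adjusted p = 1.62e-06, without JL019-2). Ccr7, a chemokine receptor for entry into lymph nodes, measured 19451, 4246 and 20487 in CD4 and 10859, 8998 and 13757 in CD8 libraries, and was called higher in CD4 cells only without JL019-2 (-0.71, adjusted p = 0.0235). The list's median log2 difference was 0.17 with all hosts and -0.71 without JL019-2, and -0.13 after quantile normalisation.

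CD3 and receptor signalling genes were called higher in CD8 cells for 13 of 36 members and higher in CD4 cells for 1, which became 9 and 6 without JL019-2, where T-cell markers were low in the CD4 library, and 4 and 1 after quantile normalisation. With 4.52% and 6.79% of all genes called, and 13.2% and 12.2% without JL019-2, the CD4 counts are below and near the background. Cd3d measured 17396, 9565 and 16419 in CD4 and 31999, 24698 and 51602 in CD8 libraries (1.30 ± 0.23 SE, adjusted p = 0.00208, and 1.27, adjusted p = 0.00471, without JL019-2). Lck, the kinase bound to the coreceptors, measured 46069, 11866 and 34659.9 in CD4 and 65425, 54974 and 69126 in CD8 libraries (1.24 ± 0.26 SE, adjusted p = 0.00637, and 0.75, adjusted p = 0.02, without JL019-2). Trat1, an adaptor, was the 1 member higher in CD4 cells with all hosts, at 1184, 533 and 1301 in CD4 and 36.5, 21.7 and 70.1 in CD8 libraries (-4.58 ± 0.41 SE, adjusted p = 9.31e-06, and -4.59, adjusted p = 1.11e-05, without JL019-2). Its CD8 values were all far below its CD4 values.

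MHC class I and peptide loading genes were called higher in CD8 cells for 8 of 24 members and for 0 in CD4 cells (10 and 1 without JL019-2), with a median log2 difference of 0.51. Both CD4 counts are below the 6.79% and 12.2% of all genes, and both CD8 counts above the 4.52% and 13.2%. H2-K1, a classical class I heavy chain, differed by 0.71 ± 0.19 (SE, adjusted p = 0.0252), or 0.65 without host JL019-2 (adjusted p = 0.0427) and Tapbpl, a peptide editor, by 1.38 ± 0.19 (SE, adjusted p = 2.81e-04), or 1.24 without host JL019-2 (adjusted p = 9.43e-04). The related H2-Q6 and H2-Q7 were also called (1.51 and 1.41), with reads that could be split between paralogs. Of 31 type I interferon-stimulated genes, 2 were called higher in CD8 and 4 in CD4 cells (5 and 8 without JL019-2), and 4 and 2 after median centring. The CD8 counts are near the background of 4.52% and 13.2%, and the CD4 counts above that of 6.79% and 12.2%. Mx1, an antiviral GTPase, was higher in CD8 cells (1.33 ± 0.22 SE, adjusted p = 0.00106, and 1.32, adjusted p = 0.00245, without JL019-2), and Ifih1 (MDA5), a sensor of viral RNA, in CD4 cells (-1.40 ± 0.39 SE, adjusted p = 0.0342, and -2.27, adjusted p = 1.85e-05, without JL019-2). Of 20 glycolytic genes 1 was called in each direction, again near the background, with 5 higher in CD8 and 2 in CD4 cells without JL019-2 and 4 and 1 after median centring. The calls with all hosts were Pfkp (1.26, adjusted p = 0.00759) and the lactate carrier Slc16a3 (-2.12, adjusted p = 3.07e-04).

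No difference was called among 35 cell cycle genes with all hosts, and 2 were called higher in CD4 cells without JL019-2, beside 4.52% and 6.79% of all genes, and 13.2% and 12.2% without JL019-2. These counts are near or below the background. The median log2 difference of the list was -0.11, and 0.09 after centring each library on its median. Mki67 (Ki-67), the protein of dividing cells, measured 6899.7, 4989 and 5167 in CD4 and 4139.9, 5014 and 2041 in CD8 libraries (-0.69 ± 0.23 SE, adjusted p = 0.0738, and -1.04, adjusted p = 0.00525, without JL019-2). Ccna2, cyclin A2, measured 6328, 7572 and 7043 in CD4 and 6926, 5665 and 5812 in CD8 libraries (-0.19 ± 0.19 SE, adjusted p = 0.54, and -0.07, adjusted p = 0.824, without JL019-2). The groups overlapped for Ccna2 and for Mki67, and Mki67 was called only without JL019-2.

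The CD8-CD4 difference of syngeneic hosts was then tested against that before transfer, asking where the cell types had drawn apart or together. In this interaction 115 genes (0.687%) were more CD8-sided and 532 (3.18%) more CD4-sided in syngeneic hosts than at day 0, and 221 (1.32%) and 704 (4.21%) without JL019-2. Centring each library on its median turned this split to 432 and 365, so the balance of directions depends on the scaling. The test shares the syngeneic libraries with the comparison above. Of the 35 cell cycle genes, 19 were more CD4-sided and 0 more CD8-sided (21 and 0 without JL019-2, 12 and 0 after median centring), with a median difference of -1.86. At day 0, Ccna2 had measured 407 and 374 in CD4 and 2226 and 2647 in CD8 libraries, so that a gap toward CD8 was present before transfer. In syngeneic hosts both cell types were above their day 0 values, and the values of the cell types overlapped (-2.82 ± 0.30 SE, adjusted p = 5.65e-04, and -2.71, adjusted p = 1.09e-04, without JL019-2). Erythroid markers moved in the same direction, 16 of 18 being called more CD4-sided. Their summed value at day 0 was 67499 and 79480.4 in CD8 and 7109.8 and 7947 in CD4 libraries. Neutrophil markers (12 of 16 called more CD4-sided) summed at day 0 to at most 4263 in CD8 and 1070.3 in CD4 libraries. The part of such cells in the cell cycle values was not tested.

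Fasl had the lowest p among genes that became more CD8-sided. At day 0 it measured 905 and 797 in CD4 and 258 and 231 in CD8 libraries, the CD4 side being higher. In syngeneic hosts the CD8 side was higher in all 3 pairs, and the interaction was 4.12 ± 0.30 (SE, adjusted p = 2.58e-05), or 3.91 (adjusted p = 4.35e-06) without JL019-2. Itm2a, a membrane protein of activated T cells, went from 5305 and 4720.4 in CD4 and 2461 and 3119 in CD8 libraries at day 0 to 2019, 831 and 2080.2 in CD4 and 5806, 4776 and 9441 in CD8 libraries (2.93 ± 0.34 SE, adjusted p = 0.00107, and 2.71, adjusted p = 2.48e-04, without JL019-2). Of 26 killer receptor genes, 2 were more CD8-sided than at day 0 and 1 more CD4-sided (9 and 1 without JL019-2). Of all genes 0.687% and 3.18% were, and 1.32% and 4.21% without that host, so the single CD4-sided call is at the background. The 2 were Klrc1 (2.45 ± 0.43 SE, adjusted p = 0.00706, and 2.86, adjusted p = 2.98e-04, without JL019-2) and Cd160 (2.96 ± 0.51 SE, adjusted p = 0.00633, and 3.55, adjusted p = 7.19e-05, without JL019-2), and the 1 was Klrg1 (-2.44 ± 0.44 SE, adjusted p = 0.0083, and -2.34, adjusted p = 0.0066, without JL019-2). Asb2, part of a ubiquitin ligase, was not called between the cell types in syngeneic hosts (-0.40, adjusted p = 0.389), while at day 0 it had measured 479 and 399 in CD4 and 43.3 and 32.8 in CD8 libraries (3.10 ± 0.46 SE, adjusted p = 0.00271, and 2.96, adjusted p = 0.00145, without JL019-2). On the other side, Nqo1, a quinone reductase, measured 65.5 and 67.7 in CD4 and 257 and 299 in CD8 libraries at day 0 and 107, 483 and 121 in CD4 and 10.5, 23.5 and 24.6 in CD8 libraries of syngeneic hosts (-5.31 ± 0.54 SE, adjusted p = 5.65e-04, and -4.78, adjusted p = 5.43e-05, without JL019-2). Lineage genes such as Zbtb7b (0.36 ± 0.70 SE, adjusted p = 0.857, and -0.30, adjusted p = 0.787, without JL019-2), Cd40lg (-0.12 ± 0.60 SE, adjusted p = 0.952, and -0.49, adjusted p = 0.63, without JL019-2) did not pass this test, and Foxp3 passed it only without JL019-2 (-0.51 ± 1.33 SE, adjusted p = 0.903, and -2.52, adjusted p = 0.0178, without JL019-2).

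Against allogeneic hosts, where donor T cells meet foreign MHC, 313 genes (1.87%) were more CD8-sided and 429 (2.56%) more CD4-sided in syngeneic hosts, and 500 (2.99%) and 791 (4.72%) without JL019-2. The split became 465 and 324 after median centring. Gzmk had the lowest p of the CD4-sided genes. In allogeneic hosts it measured 1293, 976, 1325 and 1315 in CD4 and 10036, 8945, 14269 and 8991 in CD8 libraries, higher in CD8 cells of all 4 hosts. Syngeneic hosts had the opposite order in all 3 pairs, and the interaction was -5.76 ± 0.40 (SE, adjusted p = 8.09e-06), or -5.75 (adjusted p = 1.20e-06) without JL019-2. Pdcd1 measured 8702, 10570.1, 8619 and 10422 in CD4 and 22468, 23496, 18997 and 26576 in CD8 libraries of allogeneic hosts. Here too the order was opposite in the 2 kinds of host (-4.32 ± 0.33 SE, adjusted p = 1.54e-05, and -4.80, adjusted p = 5.31e-08, without JL019-2). The same held for Havcr2 (-4.12 ± 0.33 SE, adjusted p = 1.54e-05, and -4.15, adjusted p = 3.30e-06, without JL019-2) and Klrg1 (-4.52 ± 0.37 SE, adjusted p = 1.87e-05, and -4.43, adjusted p = 4.62e-06, without JL019-2). For Klrg1 the difference within allogeneic hosts, though toward CD8 in all 4, was not called (0.49, adjusted p = 0.312). Of 24 Treg identity genes, 9 were more CD4-sided and 2 more CD8-sided in syngeneic hosts (13 and 3 without JL019-2), all above the shares of all genes. Foxp3 in allogeneic hosts measured 579, 367, 337 and 469.9 in CD4 and 334, 453, 103 and 335 in CD8 libraries. The CD4 value was higher in 3 of 4 allogeneic hosts and the log2 difference there was -0.67 (adjusted p = 0.697), while the interaction passed the test (adjusted p = 0.00379, and 7.95e-08 without JL019-2).

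More CD8-sided than in allogeneic hosts were 12 of 27 memory and homeostatic genes, with 3 more CD4-sided (15 and 4 without JL019-2). All genes gave 1.87% and 2.56%, and 2.99% and 4.72% without JL019-2. Cxcr3 measured 7825, 7883, 8514 and 8803 in CD4 and 7683, 8218, 7914 and 5979 in CD8 libraries of allogeneic hosts (-0.16, adjusted p = 0.704). Its interaction was 2.88 ± 0.27 (SE, adjusted p = 5.96e-05). Cxcr6 (3.18 ± 0.25 SE, adjusted p = 1.54e-05, and 3.04, adjusted p = 3.83e-06, without JL019-2), Pim2, a survival kinase (3.67 ± 0.30 SE, adjusted p = 1.87e-05, and 3.46, adjusted p = 4.62e-06, without JL019-2), and Itm2a (3.69 ± 0.29 SE, adjusted p = 1.54e-05, and 3.47, adjusted p = 3.05e-06, without JL019-2) followed. Cd22, an inhibitory lectin known from B cells, had the largest interaction of the 5 genes named on this side (5.39 ± 0.35 SE, adjusted p = 6.58e-06, and 5.74, adjusted p = 7.95e-08, without JL019-2). It measured 112, 331 and 85.3 in CD4 and 2451, 3083 and 1424 in CD8 libraries of syngeneic hosts and 940.0, 753, 797 and 1178 in CD4 and 309, 298, 265 and 430.0 in CD8 libraries of allogeneic hosts. Of 18 B cell markers, 3 were called higher in CD8 and 5 in CD4 cells of syngeneic hosts, above the 4.52% and 6.79% of all genes. The 3 were Cd22, Cd79b and Ighd. Without JL019-2 the counts were 3 and 2, near the 13.2% and 12.2% of all genes. The B cell list summed to 24203 to 29651 in CD8 libraries and to 26126, 119021 and 22462 in CD4 libraries. Of its 18 members, H2-Eb1 was at 0 in the CD8 libraries of JL019-1 and JL027, Vpreb3 in the CD8 library of JL019-1 and the CD4 library of JL027, and Pax5 in the CD8 library of JL027 and the CD4 library of JL019-2. The part of B cells in the Cd22 values was not tested.

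**Figure D4:**
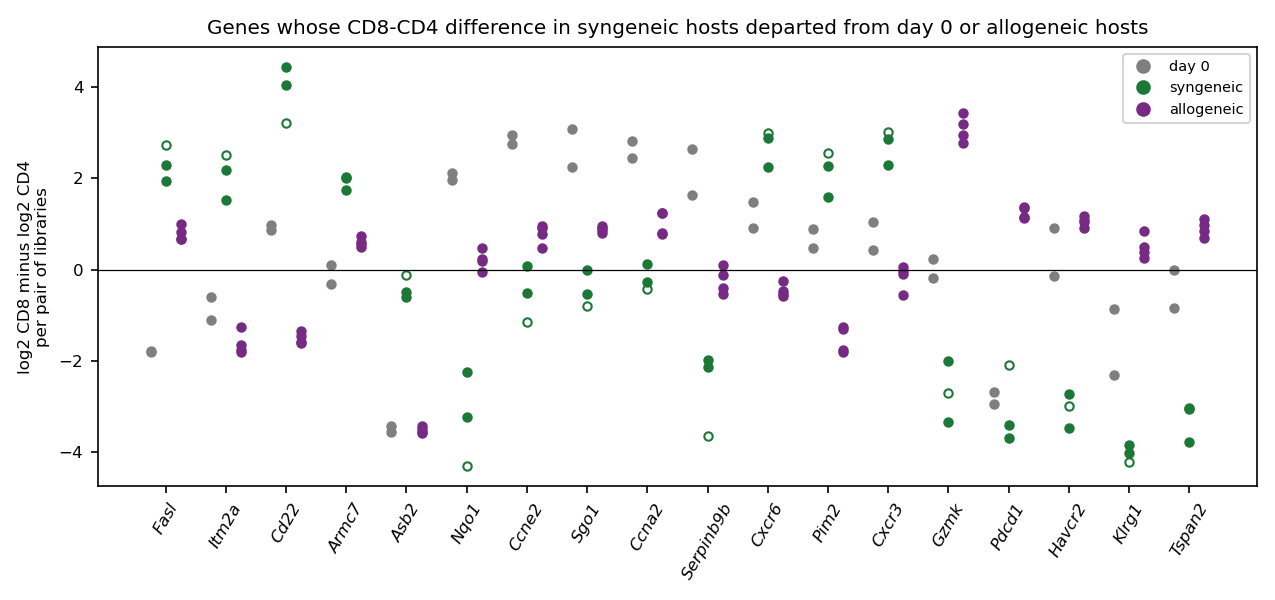
Log2 difference, CD8 minus CD4, of each pair of libraries (1 point per pair) for the genes named in the 2 interaction tests; grey is day 0, green is syngeneic, purple is allogeneic, and open green circles are host JL019-2. Green points lie above 0 and purple points below for Itm2a, Cd22, Cxcr6 and Pim2, and the other way round for Gzmk, Pdcd1, Havcr2, Klrg1 and Tspan2.

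The receptor sequences of the same libraries were compared last. Clonality is 0 when all clonotypes are equally frequent and 1 when 1 clonotype holds all reads, and was computed on 11386 reads drawn from each library. TRB clonality was 0.0406, 0.0503 and 0.0865 in CD4 and 0.0138, 0.0136 and 0.0199 in CD8 libraries. All CD4 libraries were above all CD8 libraries, and the difference per host, CD8 minus CD4, averaged -0.0434 ± 0.0207 (SD, n = 3; two-sided exact sign-flip permutation test, p = 0.25, the smallest that 3 hosts allow). Without JL019-2 the mean was -0.0467. At day 0 the values were 0.0102 and 0.00957 in CD4 and 0.0109 and 0.00953 in CD8 libraries, so the CD8 libraries of syngeneic hosts stood nearer to day 0. The largest TRB clonotype held 1.34, 1.47 and 4.84% of reads in CD4 and 0.118, 0.186 and 0.341% in CD8 libraries. These shares rest on 13449 to 25255 TRB reads per library, and the Wilson 95% interval of the largest, in the CD4 library of JL027, was 4.50 to 5.20%. PCR reads without molecular identifiers are not independent molecules, so intervals cover counting error only.

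V segments were used differently by the cell types in every host. On average 30.1 ± 3.49% (SD, n = 3) of TRB reads would have to change segment to turn one repertoire into the other, and 32.6 ± 2.98% of clonotypes. TRBV31 held 20.1, 18.4 and 20.7% of reads in CD4 and 4.46, 3.43 and 4.22% in CD8 libraries. TRBV16 held 31.3, 36.3 and 28.2% in CD4 and 51.3, 52.1 and 51.1% in CD8 libraries. TRBV29 held 2.43, 2.76 and 1.93% in CD4 and 5.70, 5.84 and 6.93% in CD8 libraries. None of the 3 overlapped between the cell types. The same order stood at day 0, where TRBV31 held 16.9 and 16.9% in CD4 and 4.15 and 3.29% in CD8 libraries. TRBV17 held 2.56, 3.91 and 8.95% of reads in CD4 and 7.31, 7.72 and 7.58% in CD8 libraries, with the CD4 library higher in JL027 alone, while by clonotypes it held 2.89, 4.18 and 4.15% in CD4 and 8.07, 8.45 and 8.20% in CD8 libraries. The CD4 library of JL019-2, though rich in RNA of other cells, had TRBV31 and TRBV16 shares on the CD4 side. Shares follow the primers of the nested PCR as well as the cells, and are compared only between cell types.

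**Figure D5:**
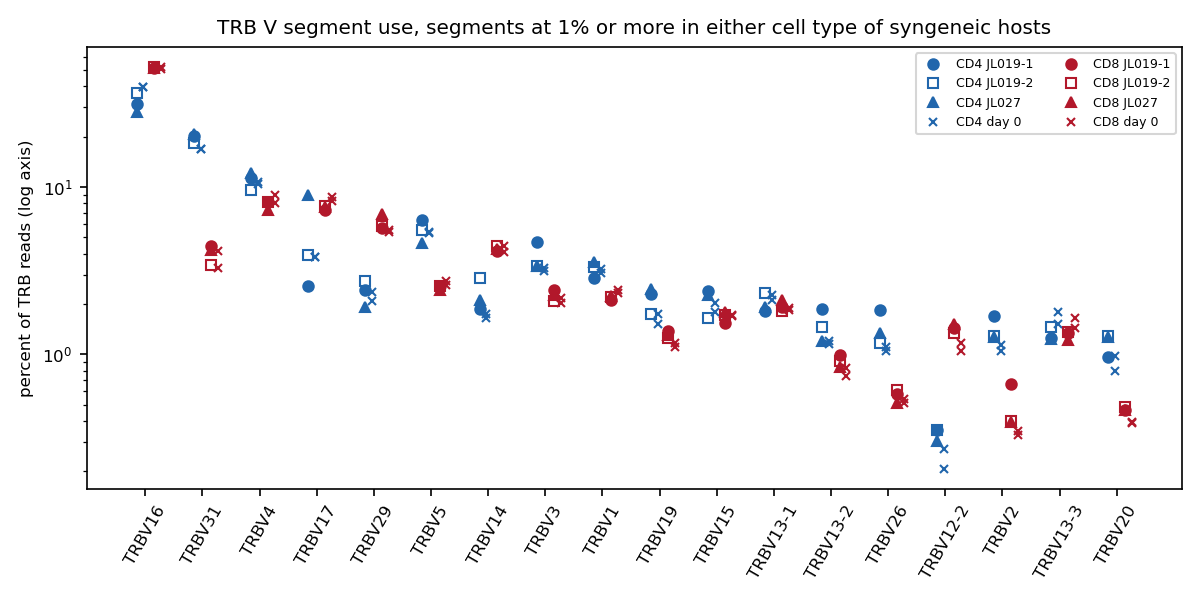
Percent of TRB reads (log axis) with each V segment that reached 1% in the mean of either cell type, in the 6 syngeneic libraries (symbols as hosts, open squares JL019-2) and the day 0 libraries (crosses); blue is CD4 and red is CD8. TRBV31 is higher in CD4 libraries and TRBV16, TRBV29 and TRBV14 in CD8 libraries, with day 0 in the same order.

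Clonotypes shared by the CD4 and CD8 libraries of a host were measured with the Morisita-Horn index, which is 0 for no overlap and 1 for identical repertoires. For TRB it was 0.143 in JL019-1, 0.0211 in JL019-2 and 0.00312 in JL027. CD4 and CD8 libraries of different hosts gave 0.00278 to 0.0196, so JL019-1 stood far above that range, JL019-2 just above it and JL027 inside it. In JL019-1 894 clonotypes, 9.47% of CD4 and 6.42% of CD8 clonotypes, were found in both libraries, with 22.1% of CD4 and 7.93% of CD8 reads. For TRA the index was 0.0659, 0.283 and 0.154, and that between hosts spanned 0.0595 to 0.276. Clonotypes were matched on amino acids, so separate rearrangements can coincide.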

How the data were processed

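RNA of sorted CD4 and CD8 T cells was read as full-length cDNA made with a SMARTer v4 kit and Nextera XT libraries, per the labels' protocols. The submitters' processing notes name FastQC 0.11.7, kallisto, DESeq2 and GRCm38 (mm10) without giving their roles. The RNA signal values are normalised counts per gene deposited by the authors. They are not whole numbers, their mean over 31 columns equals the deposited baseMean within 0.049, and the depth in reads is unknown. The TCR files hold read counts per clonotype as deposited by the authors. No column was left unmapped (0).

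Values were taken as log2(value + 1) without a filter and fitted with limma 3.58.1 (R 4.3.3) over 26 CD4 and CD8 libraries of 13 hosts, with the host as a block, 9 residual degrees of freedom and empirical Bayes moderation with trend and robust settings. Adjusted p-values are Benjamini-Hochberg values over 16741 genes, called below 0.05, and all adjusted p-values in the text come from this limma fit. Log2 differences understate changes of low genes because of the pseudocount of 1. The pairing comes from the labels, which give CD4 and CD8 libraries the same host name, or at day 0 the same prefix. The correlation of deviations from the group means was 0.14 in JL019-1, -0.11 in JL019-2 and -0.06 in JL027. The second fit left out host JL019-2 (8 residual degrees of freedom). On simulated data for this comparison, with 16741 genes, 14 of 100 genes changed by a log2 of 1 and 57 of 100 changed by a log2 of 2 were recovered, with 1 false call among 72. The simulated noise was normal, independent between genes and of the same spread in every library. These figures therefore do not cover a departing library such as the CD4 library of JL019-2. Clonality and overlap were computed with Python 3.11.15, numpy 2.4.6, pandas 2.3.3 and scipy 1.17.1, clonality on 11386 TRB reads drawn 20 times. Promoter sequences are the RefSeq table of GRCm38.p6.

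The members and gene lists were chosen with earlier results of these data known. Named genes are list members, first the up to 4 called members of a list with the lowest p in each direction, then the 12 genes per direction with the lowest p, list members included, and 5 per direction for each difference between conditions. Predicted genes, receptor segments, mitochondrial and ribosomal protein genes were left out of the last 2 steps. Removing a gene-length trend and leaving the coreceptor genes out of the lineage lists were chosen after seeing the data. Within the prefix JL019 the syngeneic comparison rests on 2 hosts, while the prefix JL027 has 1 syngeneic host and gives no comparison of its own.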

Additional observations from a re-analysis of the deposited data

Results flagged for a closer look

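The difference between CD8 and CD4 cells itself differed between conditions for 647 genes against day 0 and for 742 genes against allogeneic hosts, by the limma interaction term. Against day 0 the difference was more toward CD8 in syngeneic hosts for Fasl (4.12 on the log2 scale), Itm2a (2.93), Cd22 (2.98), Armc7 (2.03) and Asb2 (3.10). It was more toward CD4 for Nqo1 (-5.31), Ccne2 (-3.37), Sgo1 (-3.11), Ccna2 (-2.82) and Serpinb9b (-4.73). At day 0 Serpinb9b measured only 4.07 and 0 in CD4 and 14.8 and 5.27 in CD8 libraries, so its day 0 difference rests on low values. Armc7 encodes an armadillo repeat protein, Ccne2 cyclin E2 and Sgo1 the shugoshin that guards sister chromatid cohesion.

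Against allogeneic hosts the difference was more toward CD8 for Cd22 (5.39), Itm2a (3.69), Cxcr6 (3.18), Pim2 (3.67) and Cxcr3 (2.88). It was more toward CD4 for Gzmk (-5.76), Pdcd1 (-4.32), Havcr2 (-4.12), Klrg1 (-4.52) and Tspan2 (-4.19). Tspan2 is a tetraspanin. All of these 20 interactions were also called without JL019-2.

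Single libraries stood apart in 2 allogeneic groups of 4. For Cxcr6 the CD8 library of host JL027-1, at 36819.8, was separated from the next by 0.880 of the group's range. For Gzmk the CD4 library of host JL019-2, at 976, was separated by 0.908 of the range. Chance alone marks about 1 in 20 groups of this kind.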

How the results depend on the processing

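The count of genes called between CD8 and CD4 cells was 1892, and 1697 without the replicate block. Leaving out each syngeneic host in turn gave 1287 to 4255 genes, the highest without JL019-2. The fit on the 6 syngeneic libraries alone gave 0. Array weights gave 13717 genes, and 2005 against day 0 and 7539 against allogeneic hosts, with a weight estimation that stopped before convergence. Without JL019-2 and with the length trend removed the count was 3726, and 1268 for the difference from allogeneic hosts. Leaving out hosts gave 646 to 925 genes for the difference from day 0 (500 without the replicate block) and 632 to 1291 for that from allogeneic hosts (616 without the block). Quantile normalisation gave 859 genes higher in CD8 and 752 higher in CD4 cells, or 53.3% higher in CD8. Of 110 values of named genes none changed sign while called. The alternative that ended the most calls was the fit on 6 libraries (90 of 90), followed by leaving out JL027 (9 of 110) and quantile normalisation (8 of 110). The mean TRB overlap of a host's CD4 and CD8 libraries was 0.0556, and 0.168 for the TRA chain. Leaving out hosts moved the mean difference in TRB clonality between -0.0516 and -0.0317. Removing the length trend in all hosts gave 1979 genes. The causes of these shifts were not tested. Depth in reads is unknown, so no limit of detection is given for the RNA values.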

Other observations

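Treg identity genes of the syngeneic CD4 libraries can be set beside the sorted Treg libraries of the series. Foxp3 measured 490.2, 44.9 and 905 in syngeneic CD4 libraries, 1145 and 978 in day 0 CD4 libraries, 198 and 442 in day 0 Treg libraries and 285, 265 and 293 in Treg recovered from treated hosts. All 5 Treg libraries were below both day 0 CD4 libraries for Foxp3. For the next 3 genes both day 0 Treg libraries were above both day 0 CD4 libraries. Il2ra, the high-affinity interleukin-2 receptor chain, measured 2002, 411 and 2288 in syngeneic CD4 libraries, 1981 and 1923 in day 0 CD4 libraries and 11229 and 13064 in day 0 Treg libraries. Ctla4, an inhibitory receptor, measured 907, 239 and 1103 in syngeneic CD4, 1179.7 and 1106 in day 0 CD4 and 8262 and 14415 in day 0 Treg libraries. Ikzf2 (Helios), a factor of thymic Treg, measured 576, 329 and 1627 in syngeneic CD4, 1619 and 1769.9 in day 0 CD4 and 19287 and 14182 in day 0 Treg libraries. These values were not tested.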
